A study of Mus musculus with 10 samples.

Results

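The annexin genes Anxa1, Anxa2, Anxa3, Anxa4, Anxa5, Anxa6, Anxa7, Anxa8 and Anxa11 were followed in CGR8 cells, an SV129 mouse embryonic stem (ES) cell line, and in cells differentiated from them. All probe sets annotated to a member and to no other gene were taken, which gave 19 probe sets for 8 of the 9 members, out of 45101 probe sets on the arrays. The probe set for Anxa11 was annotated to several genes, so Anxa11 is not analysed here. The family was selected on its values with and without EBIO on these arrays, at both stages, so the calls below describe the members and are no independent evidence.

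The arrays held 4 groups. ES cells were treated with 1 mM EBIO for 3 days (n = 3) or left untreated (n = 3), at passages 25, 26 and 27 in both groups. Differentiated cells were kept as embryoid bodies for 5 days and then cultured for 10 days with EBIO (n = 2) or without it (n = 2), and the labels give no dose for that stage. EBIO is a small molecule that opens the SK and IK types of potassium channel, which are gated by calcium. The label of undifferentiated cells was borne out by 8 pluripotency markers, whose mean level per array was 11.41 to 11.57 in untreated ES cells, while 5 of them lay under the array median on every array of untreated differentiated cells.

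Annexins are calcium-dependent proteins that bind membranes rich in acidic phospholipids such as phosphatidylserine. They share a conserved core of repeats that carries the calcium sites and differ in their N-terminal tails, through which several bind S100 proteins or other partners. They are known for roles in membrane repair, vesicle traffic, links between membrane and actin, and the dampening of inflammation.

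Promoters are shown for Anxa2, which differed most between EBIO-treated and untreated ES cells, for Anxa1, which differed most in differentiated cells, and for Anxa5 as a contrast, because they differ in their core elements. They are the 250 bases before the annotated start, 5′ to 3′, from RefSeq on GRCm38.p6, with TATAAA and the AP-1 motif TGANTCA in capitals. RefSeq windows were matched for 7 of the 9 members by symbol.
Anxa2, chr9:69453433-69453682, + strand: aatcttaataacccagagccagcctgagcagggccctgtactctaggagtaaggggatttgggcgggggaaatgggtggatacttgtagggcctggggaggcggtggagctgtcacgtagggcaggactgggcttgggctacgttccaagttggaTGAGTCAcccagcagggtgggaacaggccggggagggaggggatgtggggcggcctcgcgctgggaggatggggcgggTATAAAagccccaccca
Anxa1, chr19:20390672-20390921, - strand: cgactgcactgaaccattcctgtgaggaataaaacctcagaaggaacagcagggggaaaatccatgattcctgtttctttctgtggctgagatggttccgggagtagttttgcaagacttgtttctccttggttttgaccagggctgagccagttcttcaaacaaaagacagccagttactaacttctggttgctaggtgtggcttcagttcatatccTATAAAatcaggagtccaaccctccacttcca
Anxa5, chr3:36475888-36476137, - strand: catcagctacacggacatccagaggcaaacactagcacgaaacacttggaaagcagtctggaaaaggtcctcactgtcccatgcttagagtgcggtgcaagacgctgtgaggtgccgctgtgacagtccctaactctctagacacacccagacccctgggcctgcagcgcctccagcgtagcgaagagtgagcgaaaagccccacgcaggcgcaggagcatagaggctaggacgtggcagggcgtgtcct
The Anxa2 window held TATAAA beginning 17 bases before the start and the AP-1 match TGAGTCA beginning 95 bases before it. The Anxa1 window held TATAAA beginning 32 bases before the start, and no TGANTCA. Anxa5 held neither. TATAAA, read on the gene's strand, was in 7.59% of the 32851 promoter windows of the table, and TGANTCA, the same on both strands but for its middle base, in 6.75%. The GC box GGGCGG, searched on both strands, was in the windows of Anxa2, Anxa7 and Anxa11 and in 32.7% of all windows. GGAATG, a TEAD core motif searched on both strands, was in the window of Anxa1 and in 12.6% of all windows, and CCAAT was in 33.8% of all windows and in no member's window. These motifs were chosen with the sequences and results known, and a match describes letters, not a bound site.

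Values below are the authors' log2 expression values, on which a difference of 1 is a 2-fold change. Where a gene had several probe sets, the brightest on average stands for it. A gene was called where limma's p, adjusted by Benjamini-Hochberg over all genes tested in the comparison, was under 0.05. The 2 stages had been normalized as separate sets of arrays, so EBIO was compared with its control within each stage. Levels of different genes are not compared, since probe sets differ in brightness.

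In ES cells the question was how annexin genes responded to EBIO over 3 days. Anxa1, Anxa2, Anxa3, Anxa4, Anxa5 and Anxa6 rose, each at least 2-fold, Anxa8 fell slightly, and Anxa7 was not called. Thus 6 of 8 members were called higher and 1 lower, where 23.5% of the 12096 genes tested were called higher and 21.2% lower. A call with a rise of at least 2-fold was made for 10.1% of genes. The EBIO and untreated arrays did not overlap for the 6 members that rose and for Anxa8, as for 27.9% of genes in the higher and 26.8% in the lower direction. The members' median difference was 1.83 against -0.04 for all genes tested. Because the choice of the family drew on this comparison, nothing further is read from these counts. Replicates are independent experiments according to the design text. The SEs are limma's, which draw the spread between a gene's replicates toward a value shared by all genes tested. They are therefore not the replicate spread of that gene alone. For Anxa2 in differentiated cells the SDs were 0.013 with EBIO and 0.0044 without it, while the SE of the difference was 0.066.

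**Figure D1:**
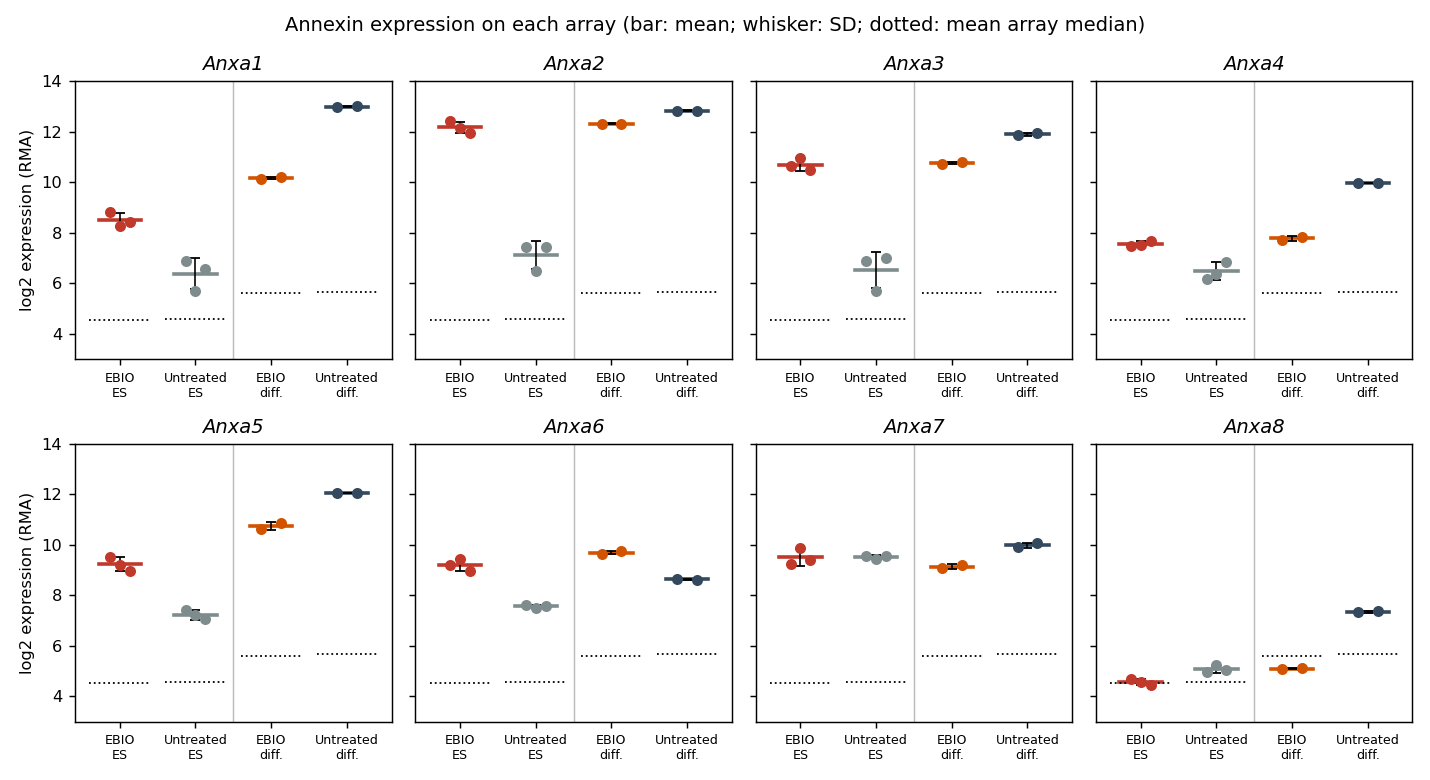
log2 RMA expression of 8 annexin genes on each of the 10 arrays, by group, with EBIO-treated left of untreated in each stage; points are arrays, bars means, whiskers SD and dotted lines the mean of the array medians. In ES cells the EBIO arrays lie above all untreated arrays for Anxa1 to Anxa6, and in differentiated cells they lie below for every gene shown except Anxa6.

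Anxa2, whose protein pairs with S100a10 at the inner face of the plasma membrane and binds actin and tissue plasminogen activator, had the largest difference of the family. It measured 12.40, 12.13 and 11.96 in EBIO-treated ES cells and 7.43, 6.49 and 7.42 in untreated ES cells, in the order of passages 25, 26 and 27. The groups stood far apart on every passage, by 4.98, 5.64 and 4.54. The difference was 5.05 ± 0.25 (SE), or 33.1-fold, the 4th largest rise among all genes tested. Anxa3, a less studied member, measured 10.64, 10.97 and 10.48 in EBIO-treated ES cells and 6.87, 5.70 and 7.01 in untreated ES cells. It thus rose by 4.17 ± 0.32 (SE), 18.0-fold, and ranked 20th, with the low untreated array again that of passage 26.

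Anxa1 encodes the glucocorticoid-induced annexin that dampens inflammation through formyl peptide receptors. It measured 8.82, 8.27 and 8.41 in EBIO-treated ES cells and 6.88, 5.71 and 6.55 in untreated ES cells, a rise of 2.11 ± 0.29 (SE), 4.33-fold. Fpr2, the receptor gene with a probe set of its own here, lay under the array median on all 10 arrays. Anxa5, whose protein is the standard label for phosphatidylserine on dying cells, measured 9.52, 9.22 and 8.98 in EBIO-treated ES cells and 7.42, 7.21 and 7.05 in untreated ES cells. Its rise of 2.01 ± 0.17 (SE), 4.03-fold, was nearly the same on each passage, between 1.93 and 2.09.

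Anxa6, which binds cholesterol-rich membranes and the cytoskeleton and is abundant in heart muscle, measured 9.21, 9.46 and 8.97 in EBIO-treated ES cells and 7.62, 7.50 and 7.58 in untreated ES cells. The rise was 1.65 ± 0.15 (SE), 3.13-fold. Anxa4, a member known from secretory epithelia, measured 7.46, 7.50 and 7.67 in EBIO-treated ES cells and 6.17, 6.38 and 6.86 in untreated ES cells. Its rise of 1.07 ± 0.18 (SE), 2.10-fold, was the smallest called in the family.

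Anxa7, also called synexin after its role in membrane fusion, measured 9.23, 9.87 and 9.41 in EBIO-treated ES cells and 9.57, 9.43 and 9.55 in untreated ES cells. The groups overlapped, and the difference of -0.01 had a 95% interval of -0.41 to 0.38 (adjusted p = 0.955, limma; 0.323 to 0.995 over the alternatives). Within passages it was -0.34, 0.43 and -0.14. Anxa8, a member of stratified epithelia, was dim, at 4.71, 4.57 and 4.44 in EBIO-treated ES cells and 4.96, 5.23 and 5.03 in untreated ES cells, where array medians lay between 4.52 and 4.62. Its difference of -0.50 ± 0.13 (SE) was called, but not without the untreated array of passage 26 (-0.42, adjusted p = 0.058, limma) or the EBIO array of passage 27 (-0.44, adjusted p = 0.059); over the alternatives the adjusted p ran from 0.0027 to 0.059.

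The untreated ES arrays varied more in some members than in others. The SD of Anxa3 over the 3 untreated arrays was 0.72, above that of 99.1% of the genes tested, that of Anxa1 was 0.60 (97.9%) and that of Anxa2 0.54 (96.2%), against a median of 0.19 for all genes. Passage 26 was the lowest untreated array for all 3 of these genes. Anxa6 and Anxa7 had SDs of 0.06 and 0.07 there. The 3 genes were closer together on the EBIO arrays, where the SD was 0.29 for Anxa1, 0.23 for Anxa2 and 0.25 for Anxa3.

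In differentiating cells EBIO was present for 10 days. Anxa1, Anxa2, Anxa3, Anxa4, Anxa5, Anxa7 and Anxa8 fell and Anxa6 rose, so that 7 of 8 members were called lower and 1 higher. A gene was tested here if it exceeded the array median on at least 2 arrays. Anxa8 did so through its untreated arrays alone, so it could only be called lower. Of the 12338 genes tested 32.6% were called lower and 33.3% higher, while 12.4% fell at least 2-fold, as 5 of the members did, and 6.31% rose at least 2-fold, as Anxa6 did. The members' median difference was -1.22 against 0.02 for all genes tested. The EBIO and untreated arrays did not overlap for any of the 8, which held for 41% of genes in the lower and 43.4% in the higher direction. In bulk RNA, fewer cells of a type and less RNA per cell cannot be told apart.

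Anxa1 showed the largest fall, with 10.12 and 10.19 in EBIO-treated differentiated cells and 12.97 and 12.99 in untreated ones. The difference was -2.82 ± 0.07 (SE), 7.07-fold lower. Anxa8 measured 5.08 and 5.11 in EBIO-treated differentiated cells, under the array medians of 5.61 and 5.59, and 7.32 and 7.36 in untreated ones. The difference was -2.24 ± 0.07 (SE), 4.74-fold lower, and the size of this fall may be understated at so low a signal. Anxa4 measured 7.70 and 7.85 in EBIO-treated differentiated cells and 9.96 and 9.98 in untreated ones, so that it fell by 2.19 ± 0.08 (SE), 4.58-fold.

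Anxa5 measured 10.64 and 10.85 in EBIO-treated differentiated cells and 12.07 and 12.06 in untreated ones, a difference of -1.32 ± 0.09 (SE). Anxa3 measured 10.73 and 10.78 in EBIO-treated differentiated cells and 11.85 and 11.93 in untreated ones, a difference of -1.13 ± 0.07 (SE). Anxa5 was thus 2.49-fold and Anxa3 2.19-fold lower with EBIO, with no overlap between the groups. Anxa7 measured 9.07 and 9.20 in EBIO-treated differentiated cells and 9.92 and 10.06 in untreated ones, so that it fell by 0.85 ± 0.09 (SE), 1.80-fold.

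Anxa2 changed little at this stage, with 12.32 and 12.30 in EBIO-treated differentiated cells and 12.83 and 12.83 in untreated ones. Its difference of -0.52 ± 0.07 (SE), 1.43-fold lower, was called in the fit on the 4 differentiated arrays. It was not called when the 4 groups were fitted together, where its SE was 0.27 (adjusted p = 0.147, limma; 2.03e-05 to 0.147 over the alternatives). Anxa6 went against the others, with 9.65 and 9.74 in EBIO-treated differentiated cells and 8.66 and 8.62 in untreated ones, a rise of 1.06 ± 0.07 (SE), 2.08-fold.

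**Figure D2:**
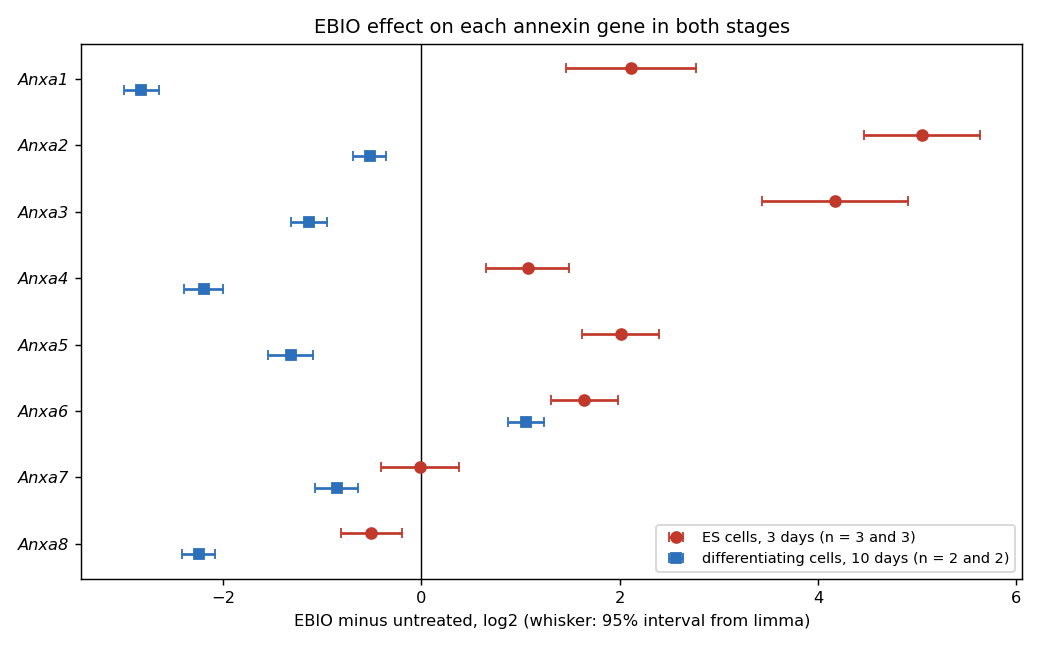
Difference between EBIO-treated and untreated cells for each annexin gene on the log2 scale, with 95% intervals from limma, in ES cells (circles, n = 3 and 3) and in differentiating cells (squares, n = 2 and 2). Anxa1 to Anxa5 lie right of 0 in ES cells and left of it in differentiating cells, and Anxa6 lies right of 0 in both.

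The direction of the EBIO effect thus turned with stage for 5 members. Anxa1, Anxa2, Anxa3, Anxa4 and Anxa5 were called higher in ES cells and lower in differentiated cells, which held for 6.6% of the 10925 genes tested at both stages. For Anxa2 the fall in differentiated cells (-0.52) was not called when the 4 groups were fitted together (adjusted p = 0.147, limma). Its other tested probe set, 1437692_x_at, was not called in ES cells (0.40). Anxa6 was called higher at both stages, as were 11.9% of genes, and Anxa8 lower at both, as were 9.37%. The Anxa8 call in differentiated cells could only be lower, since it was tested there through its untreated arrays alone. Its ES call was lost without untreated ES array 2 or EBIO-treated ES array 3. No member was called lower in ES cells and higher in differentiated cells, as were 4.74% of genes. The difference between the effects, differentiated minus ES, was fitted on the 4 groups together and was called below 0 for all 8 members, where 25% of 13712 genes were and 20.5% were called above 0. It was -5.57 ± 0.35 (SE) for Anxa2, -5.31 ± 0.45 for Anxa3, -4.94 ± 0.40 for Anxa1, -3.33 ± 0.23 for Anxa5, -3.27 ± 0.25 for Anxa4 and -1.74 ± 0.17 for Anxa8. For Anxa7 (-0.84 ± 0.24) and Anxa6 (-0.59 ± 0.20) it lay nearer 0. With probe sets averaged the Anxa7 value was -0.43, and after quantile normalization of all 10 arrays the Anxa8 value was -1.11, both still called. The Anxa6 call was lost under quantile normalization of all 10 arrays (-0.36, adjusted p = 0.176, limma) and with the mean of its probe sets (-0.33, adjusted p = 0.084); over the alternatives its adjusted p ran from 0.0072 to 0.176. It was also lost without untreated ES array 2 (adjusted p = 0.062), EBIO-treated ES array 1 (0.055) or any 1 of the 4 differentiated arrays (0.064 to 0.11). The call of Anxa7 was lost without untreated differentiated array 2 (-0.77, adjusted p = 0.062) or EBIO-treated differentiated array 1 (-0.77, adjusted p = 0.061), its range over the alternatives being 0.0052 to 0.062.

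Across stages the levels are a description, because the sets were normalized apart. As deposited, all 8 members were higher in untreated differentiated cells than in untreated ES cells, by 6.60 for Anxa1, 5.72 for Anxa2, 5.37 for Anxa3, 4.84 for Anxa5, 3.50 for Anxa4 and 2.27 for Anxa8. The median over all 18193 genes was 0.93, and 78.9% of genes were higher. After quantile normalization of all 10 arrays, which brought that median to -0.11, the differences were 5.37, 4.49, 4.0, 3.50, 2.01 and 0.67 in the same order of genes. Anxa6 and Anxa7 changed direction with the scaling, at 1.07 and 0.47 as deposited and -0.51 and -0.81 after quantile normalization. With probe sets averaged, the deposited differences were 3.56 for Anxa1 and 2.32 for Anxa2.

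The order of the 4 groups differed between members. On both scales untreated ES cells were the lowest group for Anxa1, Anxa2, Anxa3 and Anxa5. For Anxa4 they were the lowest as deposited (6.47 ± 0.35, SD, against 7.77 ± 0.10 in EBIO-treated differentiated cells), whereas after quantile normalization EBIO-treated differentiated cells were (6.77 ± 0.08, against 7.18 ± 0.29 in untreated ES cells). For Anxa2 the EBIO-treated differentiated cells (12.31 ± 0.01, SD) lay within the range of the EBIO-treated ES arrays (12.16 ± 0.23) as deposited. After quantile normalization they lay below it, at 11.68 ± 0.03 against 12.53 ± 0.22, so the order of these groups is not settled. The EBIO-treated differentiated arrays of Anxa3 also lay within the range of the EBIO-treated ES arrays as deposited and below it after quantile normalization, at 10.76 ± 0.04 in EBIO-treated differentiated cells and 10.70 ± 0.25 in EBIO-treated ES cells on the deposited scale, and 10.00 and 11.15 after it. Anxa1 was highest in untreated differentiated cells on both scales, at 12.98 ± 0.02 as deposited.

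Of the 19 probe sets of the members, 15 were bright enough to be tested in ES cells and 16 in differentiated cells. Fitted one by one, 10 were called higher and 1 lower in ES cells, against 23.1% and 18.4% of 20631 probe sets. In differentiated cells 2 were called higher and 12 lower, against 33.8% and 28.6% of 21342. The 3 probe sets of Anxa4 gave differences of 1.07, 0.86 and 0.51 in ES cells and of -2.19, -2.09 and -1.82 in differentiated cells, all called. For Anxa6 the tested probe sets differed by 1.65, 2.06 and 0.44 in ES cells and by 1.06, 1.16 and 0.30 in differentiated cells, the last of these not called (adjusted p = 0.053, limma).

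Probe sets of Anxa2 did not give like sizes. Probe set 1419091_a_at gave the difference of 5.05 in ES cells, whereas 1437692_x_at gave 0.40 ± 0.18 (SE; adjusted p = 0.10, limma, not called) and 1437691_at was under the median on every array. The second probe set of Anxa1 was likewise under the median on every array. With probe sets of a gene averaged, the ES differences became 1.81 for Anxa2, 0.96 for Anxa1 and 1.08 for Anxa6, and the differentiated ones -1.60 for Anxa1, -0.33 for Anxa2 and -0.45 for Anxa7, all still called. The difference between the stages' effects became -2.57 for Anxa1 and -2.15 for Anxa2, both still called. The Anxa8 probe sets differed by -2.24 and -2.41 in differentiated cells, both called, and both were tested through the untreated arrays alone. Of the Anxa7 probe sets, 1438764_at differed by 0.03 there and was not called, against -0.85 and -0.54 for the others.

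**Figure D3:**
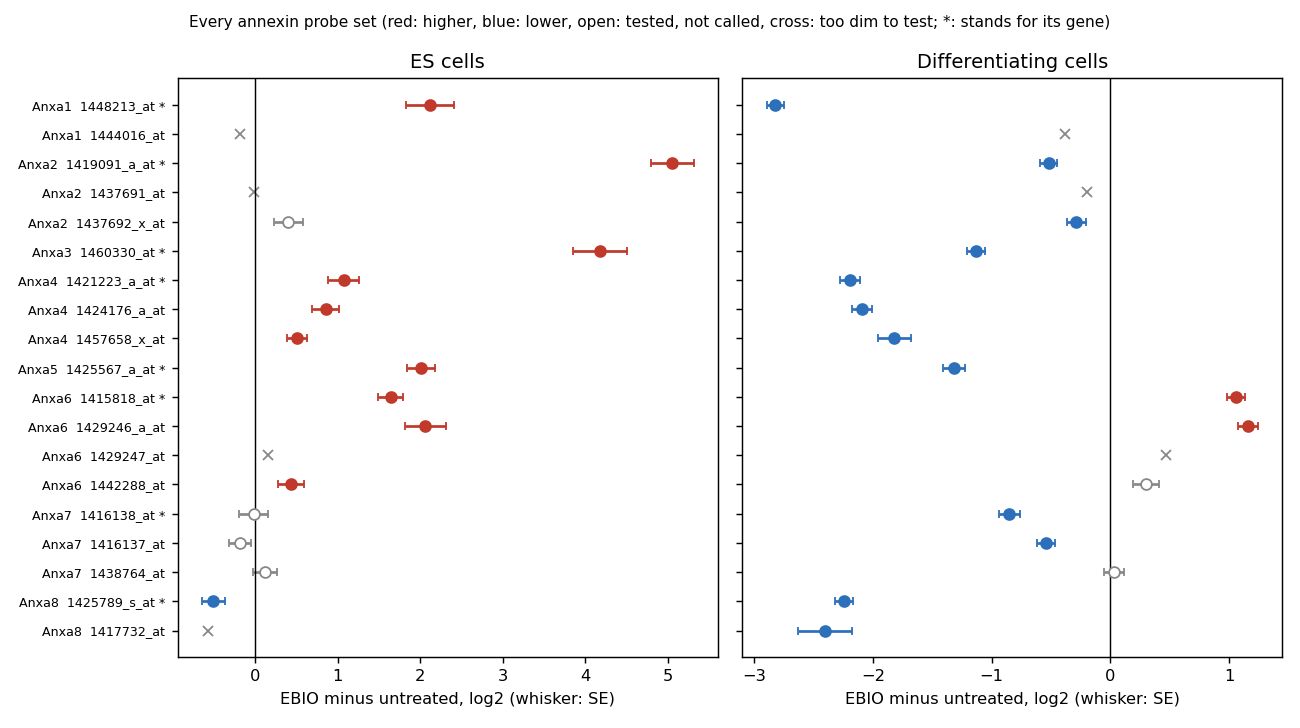
Difference between EBIO-treated and untreated cells on the log2 scale for each of the 19 annexin probe sets, in ES cells (left) and differentiating cells (right), with SE; filled points were called, open points tested and not called, and crosses were too dim to test. The 3 Anxa4 probe sets lie on the same side of 0 in each panel, while the Anxa2 probe sets range from -0.02 to 5.05 in ES cells.

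The other annexin genes, Anxa9, Anxa10 and Anxa13, had 4 probe sets, and none was bright enough to be tested. All 3 genes were under the array median on all 10 arrays, with group means from 3.19 to 5.02.

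Genes whose products work with annexins were described next, from lists chosen with results of these data known. For the counts below, 23.5% of all genes tested were called higher and 21.2% lower in ES cells. The shares in differentiated cells were 33.3% higher and 32.6% lower. Nothing further is read from the counts of these lists. Among S100 proteins that bind annexin tails, both genes tested in ES cells rose, S100a6 by 3.78 and S100a10, the Anxa2 partner, by 1.89. In differentiated cells the 3 tested fell. S100a4 differed by -4.10 and S100a6 by -1.54. S100a4 ended under the array medians, so the size of its fall may be understated and it could only be called lower. S100a10, named here outside the rule for its link to Anxa2, measured 11.97 and 12.05 in EBIO-treated differentiated cells and 12.31 and 12.48 in untreated ones, a difference of -0.39.

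In the plasminogen system, which Anxa2 and S100a10 help to place at the cell surface, 2 of 3 genes tested rose in ES cells. Plat, the tissue plasminogen activator gene, rose by 2.90 and Plaur, the urokinase receptor gene, by 2.30. Plat began under the array medians, so the size of its rise may be understated and it could only be called higher. In differentiated cells Plau, the urokinase gene, differed by -2.12 and Plaur by -1.64, both called, while Plat at 0.21 was not called (adjusted p = 0.058, limma). Plau ended under the array medians, so it could only be called lower. Membrane repair genes rose in 4 of 10 tested in ES cells and none fell. Capn2, a calpain protease subunit, rose by 3.54 and Ahnak, a giant scaffold that binds S100a10 and Anxa2, by 3.01. In differentiated cells 4 of 12 rose, near the 33.3% of all genes, and 6 fell, against 32.6% of all genes. Ahnak was at 1.09 and Dysf, the dysferlin gene, at 0.51, against Cav1, the caveolin gene, at -2.86 and Myof, the myoferlin gene, at -2.0. The list medians were 0.36 in ES cells and -0.11 in differentiated cells.

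Partners of Anxa7 and Anxa11 in vesicle traffic rose in 4 of 5 in ES cells, led by Sri, the sorcin gene (1.20), and Pdcd6ip, the ESCRT adaptor ALIX (1.08). In differentiated cells 3 of 5 fell and 1 rose, with Sri at -0.68, Pef1 at -0.42 and Tsg101 at 0.41. Anxa6 partners rose in 2 of 4 in ES cells, Sptan1, a spectrin gene, by 1.6 and Npc1, the lysosomal cholesterol transporter gene, by 1.58. In differentiated cells 3 of 4 rose, among them Prkca, a protein kinase C gene, by 1.25 and Npc1 by 0.92. The median of this list was 1.02 in ES cells and 0.90 in differentiated cells. Rasa1 was called at neither stage, and Prkca was not called in ES cells (0.15).

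Genes for the exposure and recognition of phosphatidylserine, the lipid that annexins bind, rose in 5 of 11 tested in ES cells and fell in 1. Tmem30a, a flippase subunit, rose by 1.77 and Ano6, a calcium-activated scramblase, by 1.13, while Pros1, the protein S gene, fell by 0.83. In differentiated cells 10 of 14 fell and 2 rose. Among those that fell, Tyro3 and Stab2 lay under the median on both EBIO arrays and could only be called lower. Stab1, a scavenger receptor of macrophages and endothelium, differed by -3.82 and Gas6, a bridging ligand, by -2.73, against rises of Mfge8 (0.57) and Atp11a (0.55).

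**Figure D4:**
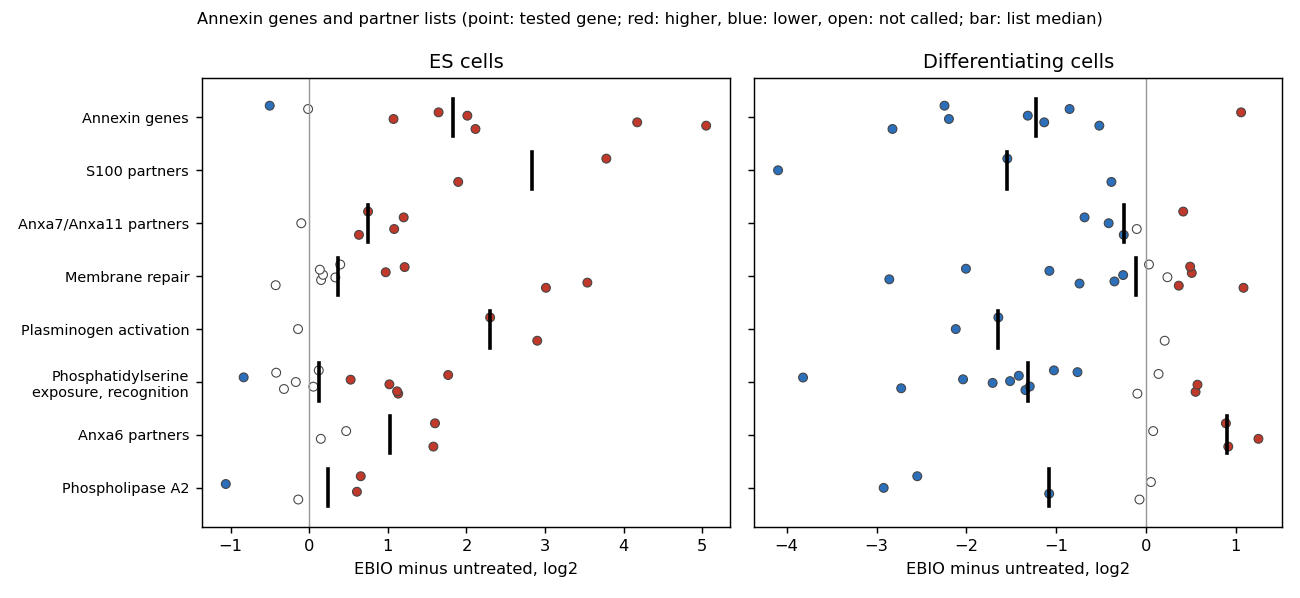
Differences between EBIO-treated and untreated cells on the log2 scale for tested annexin genes and partner genes, in ES cells (left) and differentiating cells (right); red points were called higher, blue lower and open points not called, and the bar marks each list's median. The annexin median is 1.83 in ES cells and -1.22 in differentiating cells, and the Anxa6 partner list has a median above 0 in both.

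The genes most like each member were sought among the 10924 other genes tested at both stages, by the root mean square difference over the 10 arrays after each stage's mean was subtracted. Nearest to Anxa2 were Kitl, the ligand of the Kit receptor (0.24), Lhfp (0.25), Fosl2, an AP-1 factor (0.25), Krt8, a simple epithelial keratin (0.32), and Tagln, a smooth muscle actin-binding protein (0.34). Tagln, unlike Anxa2, differed by 0.34 upward in differentiated cells. The nearest gene was Krt18 for Anxa3 (0.23), Hmga2 for Anxa1 (0.27), Tagln2 for Anxa5 (0.13), Fgfbp1 for Anxa4 (0.15), Ptpn11 for Anxa6 (0.10), Kifc3 for Anxa8 (0.11) and Nhlrc3 for Anxa7 (0.10).

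Marker genes of cell types moved with the groups. Among all genes tested, 23.5% were called higher and 21.2% lower in ES cells, and 33.3% and 32.6% in differentiated cells. In ES cells all 8 pluripotency markers fell, to an array mean of 7.35 to 7.76 with EBIO against 11.41 to 11.57 without it. Epithelial markers rose in 4 of 8 (Krt8, Krt18, Krt19 and Cldn6) and fell in 3 (Epcam, Cldn4 and Esrp1), while Cdh1 was not called. Their array means were 9.27 to 9.85 with EBIO and 7.83 to 8.57 without it. These means do not show a rise of epithelial markers as a set. Smooth muscle markers rose in 3 of 4 tested, at 7.69 to 7.86 with EBIO and 5.12 to 5.99 without it, over the 5 measured. Those that rose were Acta2, Tagln and Cnn1. Lmod1 was not called, and Myh11 was under the array median on every array of both stages. Macrophage markers averaged 4.06 to 4.21 with EBIO and 4.65 to 4.77 without it, with 1 of 4 tested called lower. That gene was Laptm5, at 4.69 with EBIO and 9.11 without it, while Cd68, Csf1r and Tyrobp were not called. The averages thus do not show a fall of macrophage markers as a set. Of the 10 macrophage markers 6 were under the median on all ES arrays of both groups, and of the 8 fibroblast markers 7. In differentiated cells all 10 macrophage markers fell, at array means of 4.45 to 4.56 with EBIO and 10.54 to 10.87 without it. Of these, 9 ended under the array median. Those 9 were bright enough to be tested through the untreated arrays alone, so they could only be called lower. All 8 fibroblast markers fell (7.12 to 7.18 with EBIO, 11.91 to 11.93 without it), as did all 7 tested endothelial markers (5.26 with EBIO, 7.53 to 7.54 without it, on average over the 8 measured) and all 8 epithelial markers (7.34 to 7.39 with EBIO, 9.74 to 9.83 without it). All 6 tested liver and endoderm markers fell as well (5.25 to 5.37 with EBIO, 7.99 to 8.19 without it, over the 7 measured). Lum, Thy1, Pecam1, Cdh5, Tek, Emcn, Esrp1, Afp, Alb and Sox17 were also tested through the untreated arrays alone, as was Fbxo15 in ES cells. These genes too could only be called lower. All 8 cardiomyocyte markers rose, at 12.44 to 12.47 with EBIO and 8.68 to 8.80 without it. Smooth muscle markers rose in 4 of 4 tested there, at 9.56 to 9.57 with EBIO and 8.54 to 8.57 without it, over the 5 measured. The difference between the 3' and 5' probe sets of Actb, a measure of RNA integrity, was 0.14 ± 0.06 in EBIO-treated and 0.42 ± 0.09 in untreated ES cells (SD, n = 3 each), and 0.46 ± 0.02 in EBIO-treated and 0.43 ± 0.04 in untreated differentiated cells (n = 2 each). The same difference for Gapdh was 0.02 ± 0.02 in EBIO-treated and -0.01 ± 0.07 in untreated ES cells (n = 3 each), and 0.02 ± 0.01 in EBIO-treated and 0.03 ± 0.01 in untreated differentiated cells (n = 2 each). The part of these markers and of RNA integrity in the annexin differences was not tested.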

How the data were processed

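The deposited values are log2 expression values that the authors made with RMA, per the submitters' processing notes; its version and a genome build are not given in the sources used here. RMA compresses the dim end of the scale, so differences from dim probe sets are understated. The quantiles of any pair of arrays differed on average by at most 0.093 within a stage and by at least 0.908 between stages, from which the stages were taken as separately normalized sets. Precision is limited by the number of arrays.

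Of 45101 probe sets, 64 Affymetrix controls were left out. Probe sets with 1 gene symbol in the platform annotation (34958; 932 had several and 9211 none) were named, 34754 through a RefSeq gene table. A gene was tested where its probe set exceeded the array median on at least 3 arrays (ES fit) or 2 (the other fits). Tests used limma 3.58.1 in R 4.3.3, with residual degrees of freedom of 4 (ES), 2 (differentiated) and 6 (4 groups), Benjamini-Hochberg adjustment and a threshold of 0.05; the code was tested on simulated data.

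ES replicates were paired by passage in the labels. The deviations of same-numbered arrays from their group means correlated at 0.33, 0.23 and 0.62. Arrays of different number correlated at -0.51 to 0.24. EBIO array 2 correlated at 0.24 with untreated array 1, so the correlations do not single out its own passage. The fits reported used no block; the alternatives are listed in the closing section. Members, lists and named genes were chosen with earlier results of these data known: all members, and per partner list the 2 called genes with the largest change in each direction.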

Additional observations from a re-analysis of the deposited data

Results flagged for a closer look

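For the 8 measured members of the family, the EBIO effect in differentiated cells minus that in ES cells differed from 0 in a fit of the 4 groups (limma, adjusted over 13712 genes). On the log2 scale it was -4.94 for Anxa1, -5.57 for Anxa2, -5.31 for Anxa3, -3.27 for Anxa4, -3.33 for Anxa5, -0.59 for Anxa6, -0.84 for Anxa7 and -1.74 for Anxa8. The call was lost under 8 of 16 alternatives for Anxa6 and 2 of 16 for Anxa7. Among all genes tested for this difference, 25% were called below 0 and 20.5% above 0. The family was selected on its values on these arrays, so its calls are no independent evidence. For Anxa1 to Anxa5 every EBIO array lay above every untreated array in ES cells and below in differentiated cells. Such a separation held for 27.9% of genes upward in ES cells and for 41% downward in differentiated cells. The share of genes with both was not counted. The stages differ in dose information, length of treatment and normalization set as well as in cell state, and these cannot be told apart.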

How the results depend on the processing

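The 6 members called higher in ES cells and Anxa6 in differentiated cells kept their call and direction under every alternative run: no or a stricter filter (the 75th percentile), probe sets averaged per gene, eBayes with an intensity trend and robust prior, the replicate number as a block, a fit of the 4 groups together and each array left out. Of 94 values of single members recomputed in ES cells 2 lost their call, of 87 in differentiated cells 1, and of 127 for the difference between stages 10. Members called lower in ES cells numbered 0 with the filter at the 75th percentile and with the mean of probe sets, since Anxa8 was then too dim to be tested, and 0 to 1 without single ES arrays. With the passage as a block the ES comparison called 6474 genes, against 5413 without it; in differentiated cells the replicate block, where the labels share only a number (correlation -0.13), called 7492 against 8134. The crossed block, added after seeing the data, called 8117. No block changed a member's call. In the 2 against 1 fits the lone array was assumed to vary like the others. Of the stage differences, Anxa6 (-0.51) and Anxa7 (-0.81) reversed under quantile normalization of all 10 arrays, a setting under which the median of all genes was -0.11, against 0.93 as deposited. Anxa8 is limited by its low signal.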

Other observations

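Phospholipase A2 genes, the enzymes that annexins were once named for inhibiting, did not move as a block. In ES cells 2 of 4 tested rose, Pla2g7 by 0.66 and Pla2g15 by 0.61, and Pla2g6 fell by 1.06. Pla2g7 began under the array medians there and was tested through the EBIO arrays alone, so it could only be called higher. In differentiated cells 3 of 5 fell, among them Pla2g4a, the cytosolic enzyme that releases arachidonic acid, with a difference of -2.92. Pla2g7, which breaks down platelet-activating factor, differed by -2.55. It ended under the array medians, so the size of its fall may be understated and it could only be called lower. Pla2g4a was under the median on all ES arrays. As listed with the other partners, these genes were chosen with results of these data known. Among all genes tested, 23.5% were called higher and 21.2% lower in ES cells, and 33.3% and 32.6% in differentiated cells.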
